A study of Mus musculus with 10 samples.

Results

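Natural killer cells and cytotoxic T cells kill target cells by releasing granules, and the genes described here encode proteins of those granules and receptors that decide whether they are released. The set was given as 10 genes, namely the granule genes Nkg7, Gzma, Gzmb and Prf1 and the receptor genes Klrk1, Klrd1, Klrc1, Klrb1c, Ncr1 and Cd244. Its members were found by gene symbol in the annotation of the array, where Cd244 is listed as Cd244a. Each of the 10 genes had 1 probeset, and 0 of these were shared with another gene, out of 23410 probesets with at least 1 symbol and 28856 in all.

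RNA came from the perfused whole brains of female wild-type C57BL/6 mice aged 6 to 8 weeks, with 5 mice and 1 Affymetrix mouse gene array per mouse in each group. One group received 80 mg of Aldara cream, which holds the TLR7 ligand imiquimod at 5%, on shaved back skin every 24 h for 5 applications, and the control group received an aqueous cream in the same way. Brains were taken 24 h after the last application. The control cream differs from Aldara in its vehicle as well as in imiquimod, so effects of the vehicle and of imiquimod cannot be told apart here. Values are log2 expression values that the authors normalised with RMA. Over the probesets with at least 1 symbol, the median of an array was 8.10 to 8.14 in control mice and 8.16 to 8.19 in Aldara-treated mice. Markers of neurons, astrocytes and oligodendrocytes had a mean log2 value of 11.81 to 11.86 in control brains and of 11.87 to 11.90 in Aldara brains, so the labelled tissue was borne out by its markers, of which 2 of 11 were higher (Gfap and Aqp4) and 8 were lower after Aldara. The labels call the arrays of a group biological replicates, 1 per mouse, and no batch or scan date was used here.

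In a cytotoxic granule, perforin (Prf1) opens the membrane of the target cell and granzymes (Gzma, Gzmb) enter through it and cleave proteins inside. Release is governed by the balance of activating receptors such as NKG2D (Klrk1), NKp46 (Ncr1) and NK1.1 (Klrb1c) and of inhibitory ones such as the pair of CD94 (Klrd1) and NKG2A (Klrc1). CD244, also called 2B4, belongs to the SLAM family and binds CD48 on other leukocytes. The healthy brain holds few such lymphocytes. They enter it during viral infection and other inflammation.

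The promoters of the 3 members that were at least 2-fold higher in Aldara brains are shown because these genes carried the largest differences. RefSeq windows (build GRCm38.p6) matched 9 of the 10 members, and the 250 bases before the start of each gene were searched on both strands for the letters of T-box (GGTGTGA), RUNX (TGTGGT), AP-1 (TGAGTCA) and GAS (TTCNNNGAA) motifs. These are motifs of transcription factor families known in lymphocytes, and they were chosen after the sequences had been read. Capitals mark a match on either strand, and GAS reads the same on both.
Nkg7 (chr7:43436888-43437137, plus strand): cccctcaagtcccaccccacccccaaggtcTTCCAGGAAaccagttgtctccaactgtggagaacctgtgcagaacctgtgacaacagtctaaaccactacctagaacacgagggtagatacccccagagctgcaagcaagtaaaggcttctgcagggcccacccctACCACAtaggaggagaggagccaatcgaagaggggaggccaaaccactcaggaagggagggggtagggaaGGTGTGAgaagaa
Gzmb (chr14:56262335-56262584, minus strand): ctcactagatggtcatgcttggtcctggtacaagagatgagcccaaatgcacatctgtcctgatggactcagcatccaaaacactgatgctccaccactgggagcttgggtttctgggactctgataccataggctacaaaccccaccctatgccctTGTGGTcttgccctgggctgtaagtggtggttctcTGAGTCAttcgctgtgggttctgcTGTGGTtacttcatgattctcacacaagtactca
Gzma (chr13:113100982-113101231, minus strand): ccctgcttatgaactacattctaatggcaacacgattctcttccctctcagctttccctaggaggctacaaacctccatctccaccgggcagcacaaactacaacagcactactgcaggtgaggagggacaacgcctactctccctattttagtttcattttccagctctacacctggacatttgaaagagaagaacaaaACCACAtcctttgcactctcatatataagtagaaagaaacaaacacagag
The RUNX letters stood in the windows of 8 of the 9 matched members, in all except that of Cd244, and in 14.0% of all 32851 windows of this length. In Gzmb they began 93 and 34 bases before the start, and in Gzma and Nkg7 they lay on the opposite strand, from 50 and 83 bases before it. The T-box letters were found in the window of Nkg7 alone, 13 bases before its start, and in 3.33% of all windows. The AP-1 letters were found in Gzmb, 58 bases before the start, and in Cd244, and in 4.46% of all windows. The GAS letters were found in Nkg7 and in 7.02% of all windows. The motifs searched share no letters where they matched in the printed windows. A member was counted where any of its windows matched, whereas the percentages are shares of single windows. With motifs chosen after the sequences had been read, the member counts beside these shares are no test. A match of letters is a description of the sequence and not of binding.

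Each of the 10 genes had a higher level in Aldara brains than in control brains. Their signals were low, and 0 of the 10 had a mean value at or above the median of the probesets tested. The log2 difference ran from 0.20 for Klrc1 to 1.69 for Nkg7, with a median of 0.49 over the 10, against a median of -0.04 over all probesets tested. Granule genes covered the widest range, with Nkg7, Gzmb and Gzma 3.22-fold, 2.78-fold and 2.57-fold higher and Prf1 1.21-fold higher, while the 6 receptor genes were 1.15-fold to 1.88-fold higher. The test was limma across the 23410 probesets with Benjamini-Hochberg adjustment, passed at an adjusted p under 0.05. By this test 12.4% of all probesets were higher and 21.0% were lower, so 10 of 10 members higher and 0 lower stood against that background. Among all probesets 1.59% were at least 2-fold higher, against 3 of the 10 members. In these bulk samples a larger number of cells that carry a transcript and more of the transcript per cell cannot be told apart. Markers of monocytes and macrophages were higher in the same brains, for 9 of 10 genes measured, and their part in the result was not tested.

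**Figure D1:**
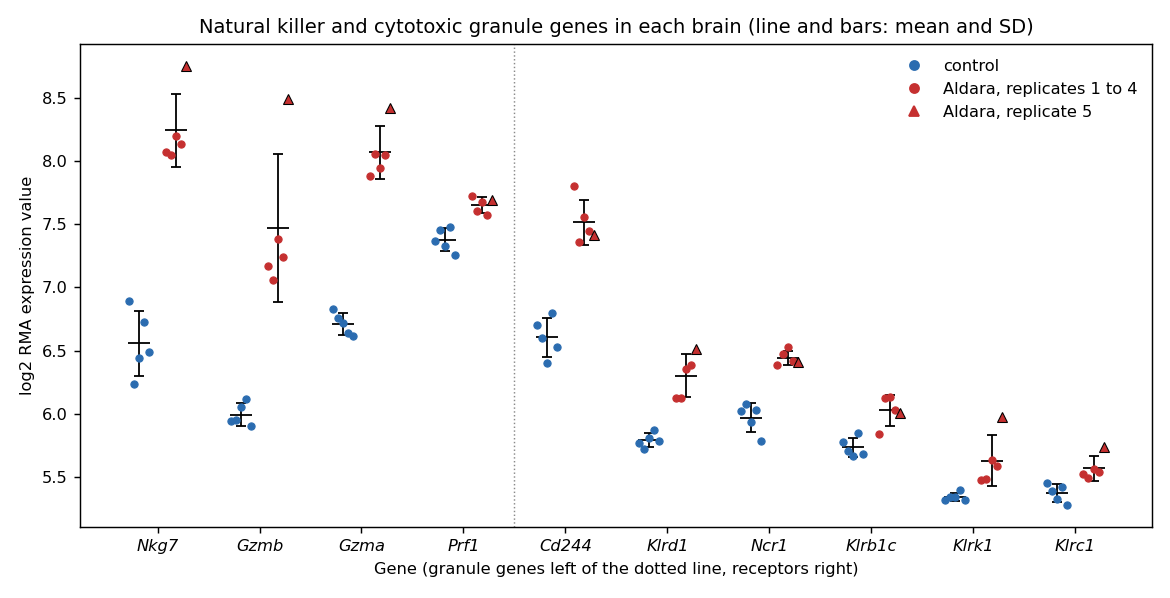
Log2 RMA value (vertical axis) of each of the 10 genes (horizontal axis) in 5 control brains (blue) and 5 Aldara brains (red), with Aldara replicate 5 as a triangle and black lines and bars for the mean and SD of each group. The Aldara points lie above all control points for 9 of the 10 genes, and for Klrb1c the lowest Aldara brain, at 5.84, lies level with the highest control brain.

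Nkg7, which encodes a membrane protein of cytotoxic granules, had the largest difference of the 10. Its log2 values were 6.89, 6.24, 6.44, 6.73 and 6.49 in control replicates 1 to 5 and 8.07, 8.05, 8.20, 8.14 and 8.75 in Aldara replicates 1 to 5. Every Aldara brain lay above every control brain, and Aldara replicate 5 stood above the other 4. The log2 difference was 1.69 (standard error 0.15, 95% interval 1.37 to 2.00, adjusted p = 3.5e-06), a 3.22-fold increase, which ranked 164 among the increases of all 23410 probesets. The gap between the lowest Aldara brain and the highest control brain was 1.16 on the log2 scale.

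The 2 granzymes rose by similar amounts but with a different spread. For Gzmb, a protease that cleaves caspases in the target cell, log2 values were 5.94, 5.95, 6.05, 6.12 and 5.90 in control replicates 1 to 5 and 7.17, 7.06, 7.38, 7.24 and 8.50 in Aldara replicates 1 to 5. The control brains lay close together, whereas Aldara replicate 5 lay far above the next Aldara brain, at 7.38, and the gap between the groups was 0.94. The log2 difference was 1.48 (standard error 0.22, 95% interval 1.00 to 1.96, adjusted p = 3.0e-04), or 2.78-fold, and without Aldara replicate 5 it was 1.22 (adjusted p = 8.5e-08). For Gzma, a protease with tryptase activity that is abundant in resting natural killer cells of the mouse, log2 values were 6.83, 6.76, 6.72, 6.64 and 6.62 in control replicates 1 to 5 and 7.88, 8.06, 7.94, 8.05 and 8.42 in Aldara replicates 1 to 5. All Aldara brains again lay above all control brains, and replicate 5 was again the highest. The log2 difference of Gzma was 1.36 (standard error 0.09, 95% interval 1.17 to 1.55, adjusted p = 2.3e-07), or 2.57-fold, and this was the smallest adjusted p of the 10 genes.

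Prf1, which encodes the pore-forming protein that lets granzymes into the target cell, changed far less. Its log2 values were 7.37, 7.46, 7.33, 7.48 and 7.26 in control replicates 1 to 5 and 7.73, 7.61, 7.68, 7.57 and 7.69 in Aldara replicates 1 to 5. The groups did not overlap, but the gap between them was only 0.10 on the log2 scale. The log2 difference was 0.28 (standard error 0.05, 95% interval 0.18 to 0.38, adjusted p = 7.0e-04), or 1.21-fold with a 95% interval of 1.13-fold to 1.30-fold. The interval for Gzma ran from 2.25-fold to 2.92-fold and that for Gzmb from 2.00-fold to 3.88-fold.

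**Figure D2:**
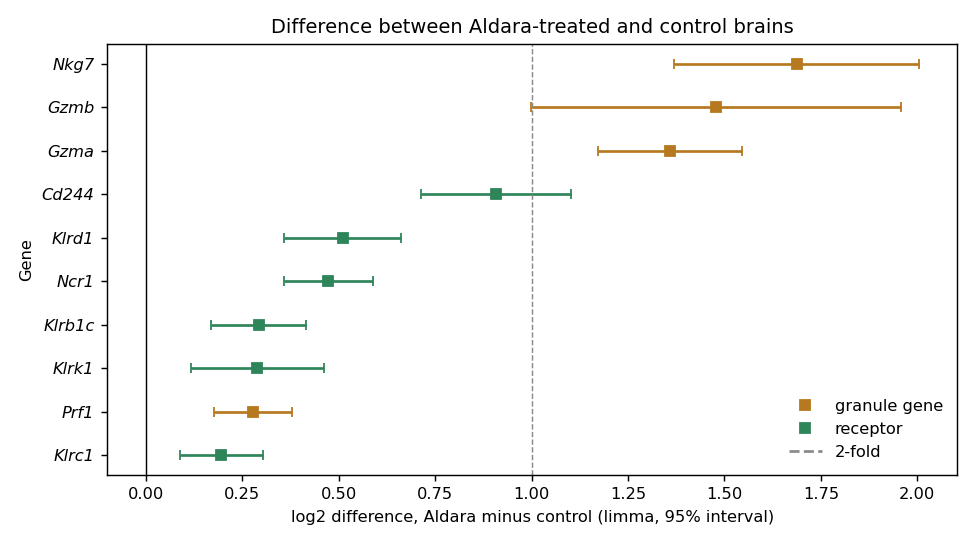
Log2 difference between Aldara and control brains (horizontal axis) for each of the 10 genes (vertical axis), with 95% intervals from limma. Granule genes are brown and receptors green, and the dashed line marks a 2-fold increase. Nkg7, Gzmb and Gzma lie right of the 2-fold line at 1.69, 1.48 and 1.36, while Prf1 lies among the smallest differences at 0.28.

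Of the receptor genes, Cd244 had the largest increase. Its log2 values were 6.70, 6.60, 6.40, 6.80 and 6.53 in control replicates 1 to 5 and 7.80, 7.36, 7.56, 7.44 and 7.41 in Aldara replicates 1 to 5. The groups were 0.56 apart at their nearest values, and here Aldara replicate 1 and not 5 was the highest. The log2 difference was 0.91 (standard error 0.09, 95% interval 0.71 to 1.10, adjusted p = 1.0e-05), or 1.88-fold. CD244 is found on natural killer cells and on some T cells, and also on some myeloid cells.

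Ncr1, whose product NKp46 is the receptor most restricted to natural killer cells and related innate lymphoid cells, was 1.39-fold higher. Its log2 values were 6.02, 6.08, 5.93, 6.03 and 5.78 in control replicates 1 to 5 and 6.38, 6.47, 6.52, 6.41 and 6.41 in Aldara replicates 1 to 5. The Aldara brains lay close together, with an SD of 0.06 against 0.12 in control brains (n = 5 each), and all of them lay above every control brain. The log2 difference was 0.47 (standard error 0.05, 95% interval 0.36 to 0.59, adjusted p = 3.3e-05).

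Klrd1, Klrc1 and Klrk1 encode CD94, NKG2A and NKG2D. CD94, the product of Klrd1, pairs with NKG2A, the product of Klrc1, to form an inhibitory receptor, and NKG2D, the product of Klrk1, is an activating receptor that forms dimers with itself. Klrd1 had log2 values of 5.77, 5.72, 5.81, 5.87 and 5.78 in control replicates 1 to 5 and of 6.13, 6.13, 6.35, 6.39 and 6.51 in Aldara replicates 1 to 5. Its log2 difference was 0.51 (standard error 0.07, adjusted p = 1.6e-04), or 1.42-fold, with no overlap between groups. Klrk1 had log2 values of 5.32, 5.34, 5.34, 5.39 and 5.31 in control replicates 1 to 5 and of 5.47, 5.48, 5.63, 5.58 and 5.97 in Aldara replicates 1 to 5. Its lowest Aldara brain lay 0.08 above its highest control brain. Its log2 difference was 0.29 (standard error 0.08, adjusted p = 0.014), the largest adjusted p of the 10 genes. Klrc1 ranged from 5.28 to 5.45 in control brains and from 5.49 to 5.73 in Aldara brains, with the smallest log2 difference of the set at 0.20 (standard error 0.05, adjusted p = 0.0092). The nearest brains of the 2 groups differed by 0.03 for Klrc1, and without Aldara replicate 5 the log2 difference was 0.20 for Klrk1 and 0.15 for Klrc1, with both still past the threshold. Klrc1 has closely related neighbours, Klrc2 and Klrc3, and the extent to which their transcripts bind its probes is not known here.

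Klrb1c, which encodes the NK1.1 antigen used to recognise natural killer cells of C57BL/6 mice, was the only member with an overlap between groups. Its log2 values were 5.77, 5.70, 5.66, 5.84 and 5.68 in control replicates 1 to 5 and 5.84, 6.12, 6.13, 6.03 and 6.00 in Aldara replicates 1 to 5. Aldara replicate 1 lay 0.01 below control replicate 4, and 4 of 5 Aldara brains lay above all control brains. The log2 difference was 0.29 (standard error 0.06, 95% interval 0.17 to 0.42, adjusted p = 0.0018). Over all probesets tested, every Aldara array lay above every control array for 10.5%, against 9 of the 10 members.

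The steps between neighbours in the order of the 10 differences could hardly be tested with 5 arrays a group. When the within-array difference of each of the 9 neighbouring pairs was compared between groups by an exact two-sided permutation test, none passed after adjustment over the 9 pairs. The largest steps were from Gzma down to Cd244, at 0.45 (standard error 0.17, exact p = 0.048, adjusted p = 0.14), and from Cd244 down to Klrd1, at 0.40 (standard error 0.15, exact p = 0.024, adjusted p = 0.11). The step from Ncr1 down to Klrb1c was 0.18 (standard error 0.06, exact p = 0.016, adjusted p = 0.11). The other 6 steps were 0.00 to 0.21, with adjusted p of 0.32 or more. The smallest p that 5 arrays against 5 allow is 0.0079, which for a single pair becomes 0.071 after adjustment over the 9 pairs, so that 1 pair alone could not pass and the outcome says little about whether neighbours differ. The 95% interval of Cd244, from 0.71 to 1.10, lay above that of Klrd1, from 0.36 to 0.66. For genes farther apart in the order, the 95% intervals of Nkg7, Gzmb and Gzma lay above those of Klrd1, Ncr1, Klrb1c, Klrk1, Prf1 and Klrc1.

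Aldara-treated mice differed from one another in how far the set rose, and Aldara replicate 5 stood highest for 6 of the 10 genes, namely Nkg7, Gzmb, Gzma, Klrd1, Klrk1 and Klrc1. Averaged over the 10 genes, its log2 difference from the control mean was 1.00, against 0.65, 0.64, 0.75 and 0.70 in Aldara replicates 1 to 4. For Ncr1, Klrb1c and Cd244 it ranked 4 among the 5 Aldara brains. Averages of the control brains ran from -0.08 to 0.09. This spread was narrower than that of the 5 Aldara brains, but not narrower than that of Aldara replicates 1 to 4 alone. Control replicate 4 was the highest of its group for 6 genes. The mean log2 value over the monocyte and macrophage markers was 9.29 in Aldara replicate 5, within the range of 9.15 to 9.39 of the group, and that over the T cell markers was 6.58, within 6.56 to 6.63. Single markers of both lists went either way in that brain. Ccr2, a chemokine receptor of monocytes, was highest there, at 7.47 against at most 6.86 in the other Aldara brains. Cd3g, a chain of the T cell receptor complex, was highest too, at 6.83 against at most 6.56. Lyz2 and Adgre1, of the monocyte and macrophage list, were lowest there, at 11.22 and 10.45 against at least 11.45 and 10.57. The T cell markers Cd2 and Cd5 were also lowest there, at 6.08 and 7.07 against at least 6.10 and 7.21. For the other receptors of natural killer cells described below, the list mean was highest in Aldara replicate 5, at 6.53 against at most 6.45. By a smaller margin this held for the genes of natural killer cell development, at 7.74 against at most 7.72. For the other granule genes the mean was 7.62 in that brain and at most 7.62 in the others. The part of any of these in the higher values of Aldara replicate 5 was not tested. Without Aldara replicate 5 all 10 genes remained higher by the same test.

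**Figure D3:**
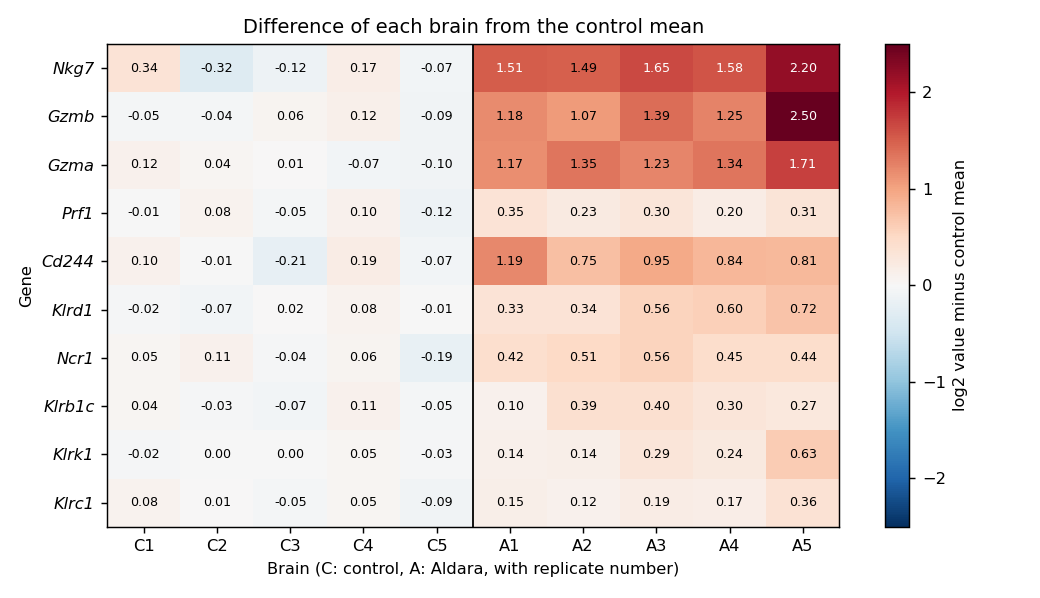
Log2 value of each gene (rows) in each brain (columns, C for control and A for Aldara with the replicate number) minus the mean of the 5 control brains, in colour and as the printed number. Column A5 holds the largest values for Nkg7 (2.20), Gzmb (2.50) and Gzma (1.71), while Cd244 is largest in A1 (1.19).

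Other granule genes rose in some cases and not in others. The background for this and the lists below was 12.4% of all probesets higher and 21.0% lower. Of 19 further genes of granule content and release, 8 were higher and 0 were lower, with a median log2 difference of 0.11. The largest was Ctsc, which encodes the protease that activates granzymes and is also active in myeloid cells, with log2 values of 7.83 to 8.04 in control brains and 10.64 to 10.97 in Aldara brains and a difference of 2.85 (standard error 0.07). Srgn, which encodes the proteoglycan core of granules in many leukocytes, had a log2 difference of 1.26 (standard error 0.07), and Tnfsf10, the death ligand TRAIL, one of 0.82. Serpinb9, the intracellular inhibitor of granzyme B, went from 6.92 to 7.02 in control brains to 7.40 to 8.07 in Aldara brains, a log2 difference of 0.69 (standard error 0.09), and it too was highest in Aldara replicate 5. Ctsw, a cathepsin of natural killer and CD8 T cells, differed by 0.47. Other granzymes did not follow Gzma and Gzmb as a group. Gzmk was higher at 0.31 (standard error 0.07, adjusted p = 0.0033), whereas Gzmc, Gzmd, Gzme, Gzmf, Gzmg, Gzmm and Gzmn did not pass, with log2 differences from -0.13 to 0.12. Fasl, the death ligand of cytotoxic lymphocytes, did not pass either, at 0.02 (95% interval -0.04 to 0.08). Apart from Gzmm, at 7.18, Fasl and the granzymes that did not pass had low control means, from 5.49 to 5.92. At such levels fold changes can be understated.

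Of 25 other receptor genes of natural killer cells that were measured, 12 were higher and 0 were lower, with a median log2 difference of 0.12. Klra2, a member of the Ly49 family that is known from myeloid cells, had the largest difference at 2.37 (standard error 0.09), with log2 values of 5.64 to 5.78 in control brains and 7.82 to 8.37 in Aldara brains. Slamf7, a SLAM family receptor of natural killer cells and other leukocytes, followed at 1.77 (standard error 0.18), and Klrb1b, an inhibitory relative of Klrb1c, at 1.05 (standard error 0.10). Il2rb, the receptor chain through which natural killer cells respond to interleukin 15, had a log2 difference of 0.60 (standard error 0.06). Klrg1, Cd226, Cd160 and Itga2, which mark natural killer cells or their subsets, did not pass, with differences from -0.02 to 0.07. Cd226 and Cd160 had control means of 5.72 and 5.78, where fold changes can be understated. Of 4 probesets shared by several Ly49 genes, 3 passed, with log2 differences of 0.61, 0.58 and 0.25, and these name no single gene.

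Klrb1c, Klrd1, Klrk1 and Klrc1 lie in the natural killer gene complex, a cluster of lectin-like receptor genes. In the RefSeq annotation (GRCm38.p6) 48 protein-coding genes lie from Klrb1a to Klra2, and 36 of them had a probeset with 1 symbol. Of these, 17 were higher and 0 were lower, and the median log2 difference was 0.08. The genes were taken by position, after the values of the members had been seen. Beside Klrb1c, Klrb1b was higher at 1.05, as given above, and Klrb1 did not pass at -0.07. Outside the set, the nearest measured genes to the other 3 members did not pass. Klre1, before Klrd1, differed by 0.03 (95% interval -0.02 to 0.08), and Klrc3 and Klrc2, between Klrk1 and Klrc1, by -0.04 and -0.01. Klre1 and Klrc3 had control means of 5.16 and 5.12, where the lowest value of all was 4.76, so their changes can be understated. The largest differences of the cluster belonged to Clec12a at 3.28 and Klra2 at 2.37, and Clec7a, a receptor of myeloid cells for fungal glucans, had 1.17. Those of the 4 members were 0.20 to 0.51.

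**Figure D4:**
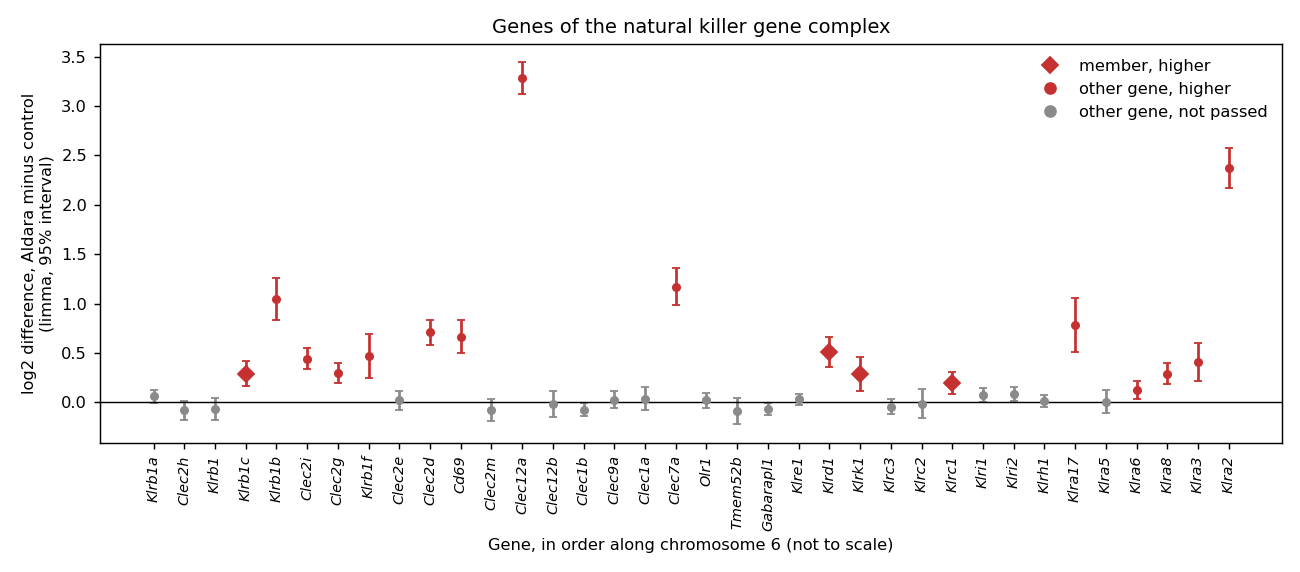
Log2 difference between Aldara and control brains with 95% intervals (vertical axis) for the 36 measured genes of the natural killer gene complex in their order along the chromosome (horizontal axis). Members are diamonds, red marks genes that were higher and grey those that did not pass. The 4 members lie between 0.20 and 0.51, with grey neighbours near 0 around Klrd1, Klrk1 and Klrc1, and Clec12a stands highest at 3.28.

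Adapters that the receptors signal through differed sharply among themselves. Of 15 measured adapters and kinases, 7 were higher and 1 was lower, Plcg1. Hcst, which encodes DAP10, the adapter of NKG2D, did not pass, with log2 values of 6.49 to 6.67 in control brains and 6.54 to 6.70 in Aldara brains and a difference of 0.05 (95% interval -0.04 to 0.13). Tyrobp and Fcer1g, adapters that macrophages and microglia also use, had log2 differences of 1.93 and 3.09, and Sh2d1b1, the adapter EAT-2 of SLAM family receptors such as CD244, had 2.18 (standard error 0.14). Lcp2 and Vav1, signalling proteins of many leukocytes, had 1.83 and 2.06. Cd247, Zap70, Lat and Sh2d1a, which T cells and natural killer cells use, did not pass, with differences from -0.02 to 0.05.

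Genes for ligands of the receptors were higher for 7 of the 10 measured and lower for 0. Cd48, the ligand of CD244, had log2 values of 5.66 to 6.09 in control brains and 7.68 to 8.11 in Aldara brains, a difference of 1.99 (standard error 0.09, adjusted p = 1.1e-08). Clec2d, a ligand of receptors of the Klrb1 family, differed by 0.71 (standard error 0.06), Clec2i, another of its family, by 0.44, and Pvr, the ligand of CD226 and TIGIT, by 0.37. For H2-T23, whose product Qa-1 is read by CD94 with NKG2A, the probeset is shared with the pseudogene H2-T-ps and differed by 1.99. Of the listed NKG2D ligands, Raet1d and H60b alone were measured, and Raet1a, Raet1b, Raet1c, Raet1e, H60a, H60c and Ulbp1 had no probeset. Raet1d was higher at 0.19 with overlapping groups, and H60b did not pass at -0.02.

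Genes of natural killer cell development and of the cytokines that drive these cells were mixed in direction. Of 21 measured, 6 were higher and 3 were lower, against 12.4% and 21.0% of all probesets, with a median log2 difference of 0.06. The 3 lower became 1 without control replicate 1, 2, 3 or 5 or Aldara replicate 4, each left out alone, and 1 with the median difference over all probesets set to 0. Eomes and Tbx21, which encode T-box factors of natural killer cells, did not pass. Their log2 differences were 0.15 (95% interval -0.14 to 0.45) and -0.05 (95% interval -0.19 to 0.09). Their control means were 7.95 and 7.24, and Prf1, at 7.38, was the only member with a control mean above that of Tbx21. Eomes varied widely among control brains, from 7.45 to 8.28. The gene of the cytokine interferon gamma, Ifng, did not pass at -0.02 (95% interval -0.10 to 0.06). Il15, a survival factor of natural killer cells, was higher at 0.29 (standard error 0.05, adjusted p = 0.0013), and Il15ra did not pass at 0.09. Il21r, Cx3cr1 and Runx3 were higher at 0.64, 0.72 and 0.42, and Id2 was lower at -0.18. Cx3cr1 and Id2 had control means of 9.39 and 12.26. Which cells of the whole brain gave the signals of the genes in this list was not tested.

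T cells carry granule genes too, so their markers were set beside the members. Of 16 measured T cell markers, 3 were higher and 2 were lower, with a median log2 difference of 0.03. The share higher was 18.8%, against 12.4% of all probesets, and 21.0% of all probesets were lower. Counts this near the background, here and for the B cell and red cell lists below, say little about these cells. Cd3g had log2 values of 5.92 to 6.19 in control brains and 6.38 to 6.83 in Aldara brains, a log2 difference of 0.51 (standard error 0.08), and Cd8b1 one of 0.39 (standard error 0.03). Cd8a differed by 0.19 with overlapping groups, Cd3e did not pass at 0.11 (95% interval -0.02 to 0.25), and Cd4, which some myeloid cells also carry, and Cd6 were lower at -0.32 and -0.11. Trat1, Cd3d, Cd28 and Cd2 did not pass and had control means of 5.24, 5.64, 5.82 and 5.98. At such levels fold changes can be understated. The mean log2 value over the T cell markers was 6.50 to 6.61 in control brains and 6.56 to 6.63 in Aldara brains. Markers of mast cells, which hold granules of other proteases, were higher for 0 of 8 and lower for 3, with list means of 6.53 to 6.59 in control brains and 6.42 to 6.49 in Aldara brains, and the 3 lower became 6 with centred arrays and 1 with the median difference over all probesets set to 0. Of 6 B cell markers 1 was higher, Cd79b, with list means of 6.26 to 6.38 and 6.31 to 6.47. The probesets shared by the haemoglobin genes differed by 0.08 to 0.32 with standard errors of 0.36 to 0.43, and of 5 further genes of red cells and platelets 1 was higher, Ppbp, with list means of 6.74 to 6.87 and 6.76 to 6.88. Monocyte and macrophage markers had the clearest separation, with list means of 7.31 to 7.40 in control brains and 9.15 to 9.39 in Aldara brains. Their median log2 difference was 1.81. Csf1r and Cd68 of this list had control means of 9.74 and 8.29. The list therefore does not separate cells that entered the brain from those already in it. The part of each of these cell types in the members' increase was not tested.

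**Figure D5:**
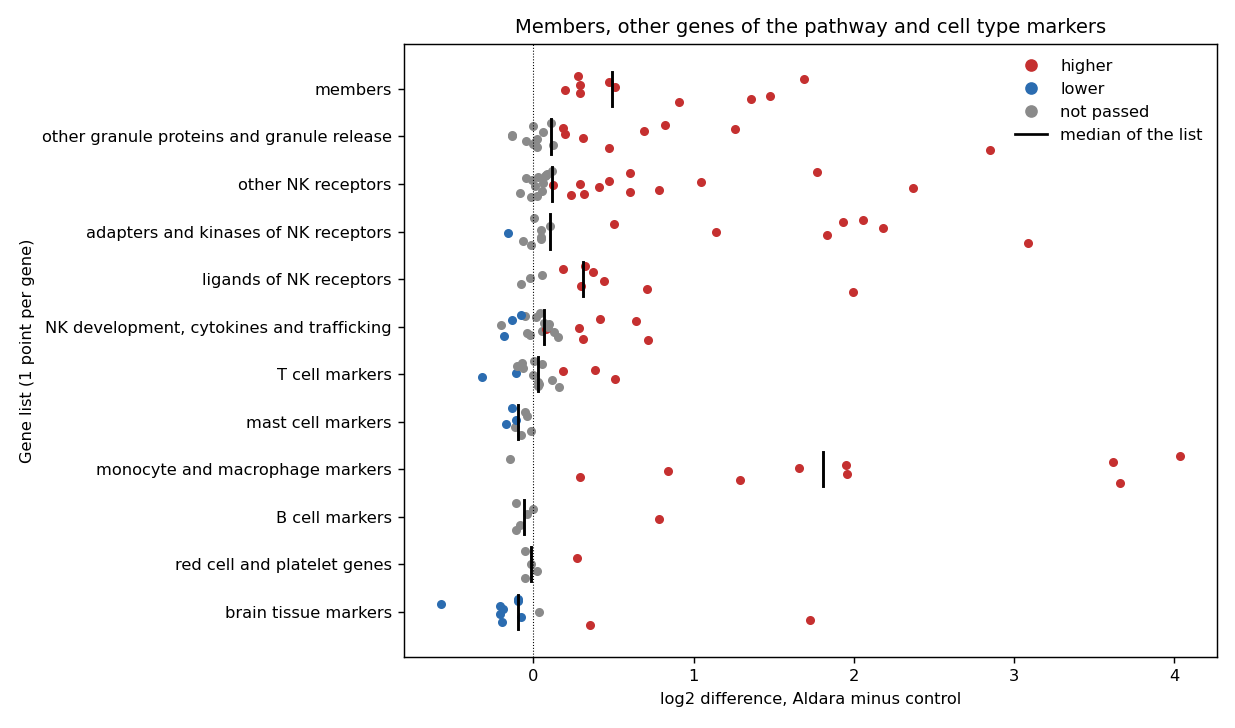
Log2 difference between Aldara and control brains (horizontal axis) of each gene in the set of 10, in 5 lists of related genes and in 6 marker lists (vertical axis), red for higher, blue for lower and grey for genes that did not pass, with a black line at the median. The 10 members are all red with a median of 0.49, the T cell markers lie around 0.03 and the monocyte and macrophage markers around 1.81.

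The genes whose values across the 10 arrays ran closest to those of Nkg7 were Cfb, Itgax, Dtx3l, Nlrc5 and Themis2. Likeness was measured as the mean absolute difference, over the 10 arrays, between the log2 deviations of 2 genes from their control means. It was 0.13 for Cfb, Itgax and Dtx3l and 0.14 for Nlrc5 and Themis2, whose log2 differences between groups were 1.55 to 1.79. For Gzma the closest were Timp1, Slfn5, Il10rb, Zc3hav1 and Samhd1, at 0.10 to 0.12, with log2 differences between groups of 1.20 to 1.47. No other member was among the 5 genes closest to either. The measure depends on the size of the difference, so members with log2 differences of 0.20 to 0.91 could hardly be among them. It therefore says little about whether the members vary together.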

How the data were processed

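RNA from the perfused brains of 5 control and 5 Aldara-treated mice was measured on Affymetrix mouse gene arrays, 1 per mouse, and their number limits the precision. The authors deposited log2 values from RMA, run in GeneSpring GX (its version is not given in the sources used here), a method that corrects background, gives all arrays 1 distribution and summarises probes by probeset. Scanner values were not used here, and no detection call was available for any probeset. RMA draws low signals toward a floor, so that fold changes of dim probesets can be understated.

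Of 28856 probesets, 21789 had 1 symbol in the platform annotation, 1621 had several and 5446 had none. The 23410 with a symbol were fitted with limma 3.58.1 (lmFit and eBayes, R 4.3.3) without covariates, with Benjamini-Hochberg adjustment over these 23410. For lists, the probeset with 1 symbol and the highest mean was used per gene. The members and lists were chosen with earlier results of these data known. Named genes are all members, up to 4 genes per list with the smallest p, named partners of the members, and the 5 nearest patterns of Nkg7 and Gzma. Others were named after their values were seen. The fit and the permutation test were tested on simulated data. Alternatives were the scaling, the probesets tested, the variance model, the methods' t-test, the replicate number as a block, unlogged means, the mean of a gene's probesets, and leaving out each array.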

Additional observations from a re-analysis of the deposited data

Results flagged for a closer look

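For 3 genes the value of Aldara replicate 5 lay far from the other 4 Aldara brains, by a rule that compares its gap to the nearest brain with the range of the group. They were Nkg7, with a log2 value of 8.75 in that brain against at most 8.20 in the others, Gzmb, with 8.50 against at most 7.38, and Klrc1, with 5.73 against at most 5.56. The rule was applied to 20 sets of 5 values, each gene in each group, and chance flags about 1 in 20. The 3 sets come from 1 brain and are not independent. No control brain met the rule.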

How the results depend on the processing

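All 10 genes were higher and 0 were lower under each of the 19 alternatives that kept them, which were 3 scalings, 2 other choices of probesets, 2 other variance models, the methods' t-test, the replicate block and leaving out each of the 10 arrays. Over these the adjusted p reached at most 0.046 for Klrk1, by the methods' t-test, and at most 0.033 for Klrc1, with the replicate block. Over these and the means of unlogged values, the log2 difference of Gzmb ran from 1.22 to 1.58, that of Nkg7 from 1.56 to 1.77 and that of Klrk1 from 0.20 to 0.33. A filter that kept the brighter 50% of probesets left 0 of the 10 members to test. The numbers of higher genes per list stayed within 1.5 times in 220 of 220 values over the other alternatives, and the numbers of lower genes in 182 of 220. For the lists of other granule genes and other receptors, the 0 lower genes became 2 each with centred arrays. The 8 lower brain markers became 5 with the median difference set to 0. For T cell markers the 2 lower genes became 4 with centred arrays and 1 under several others, among them the methods' t-test and leaving out control replicates 1, 3 or 5 or Aldara replicates 1, 3 or 4. The median difference over all probesets was -0.04, or -0.09 with the arrays centred. The test of neighbouring pairs of members, in which a single pair cannot go below an adjusted p of 0.071 with 5 arrays a group, says nothing about stability. Arrays with the same replicate number correlated at -0.11 to 0.25 in their deviations from the group means, and only numbers 1 and 2 matched best across groups. These correlations cannot show whether arrays with the same number shared a batch. With the replicate block 10 genes were higher.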
